A study of Caenorhabditis elegans with 2 samples.

Results

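The cuticle collagen genes examined here were the 156 protein-coding genes of Ensembl release 115 (genome build WBcel235, the sequence of ce11) whose symbol starts with col-, of 19973 protein-coding genes in all. The rule that selects them uses the symbol only and no binding value. Binding of UNC-62 was measured by ChIP-seq, in which DNA bound by a chosen protein is recovered and sequenced, in whole mixed-sex L1 larvae of Caenorhabditis elegans. The only group, UNC-62 L1, held 2 biological replicates, and per the labels both were strain OP600, which carries the unc119(ed3) mutation and the transgene wgIs600, a fusion of unc-62 to TY1, EGFP and FLAG tags with unc119 as rescue. The labels name unc-62 as the antibody target and describe the experiment as against eGFP-unc-62, so whether untagged UNC-62 was also recovered is not given in the sources used here. With 1 group there was no contrast between conditions, no tissue was isolated, and the control libraries were not analysed here. The values reported are therefore positions and strengths in the deposited peak lists, and no test was possible.

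Cuticle collagens are small secreted proteins made by the epidermis. Their central stretches of Gly-X-Y triplets, which repeat a glycine at a fixed spacing, wind into triple helices that are crosslinked into the cuticle. A new cuticle is made before each moult, and many collagen genes are transcribed in waves that repeat with the moulting cycle. UNC-62 is a homeodomain protein of the Meis class, a partner of Hox and Pbx proteins, and acts in many tissues, so a whole-animal experiment mixes the epidermis with all other cells. Translated coding sequences bore out the symbol, since 155 of the 156 genes encoded at least 20 Gly-X-Y triplets, with a median of 51. The exception was col-17, whose annotated reading frame held 0 triplets although another frame of the same sequence held 51. Not all members need be structural cuticle proteins: col-99 (132 triplets) encodes a transmembrane collagen, and col-135 had the most triplets, 198 in a protein of 660 residues.

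Of the 156 collagen genes, 56 had an entry of the pooled list with its summit within 1 kb of the gene's 5′ end, a share of 35.9% (exact 95% binomial interval 28.4 to 44.0%), and 100 had none. Among the other 19817 protein-coding genes the share was 49.2%, with 10074 lacking an entry. At the collagen genes that were listed, the strongest entries had a median signal, the authors' enrichment value, of 12.2 with a range from 9.10 to 21.3, against a median of 12.6 and a highest value of 128 at the other listed genes. The pooled list ranks 30000 entries of fixed length, so a place near its end is not evidence of binding, and its median signal was 11.9. Of the 56 listed collagen genes, 30 lay above that median (53.6%, 39.7 to 67.0%), and 59.1% of other listed genes did, so their typical strength was near the background. No collagen gene had a summit of the 119 peaks that passed the irreproducible discovery rate (IDR) comparison of the replicates within 1 kb, whereas 109 other genes did, or 0.55%. A count of 0 of 156 allows a share of up to 2.34% by the exact binomial interval, so this zero count does not separate the collagen genes from the background. The same held for entries with a q-value of 0.05 or less: 0 of 156 collagen genes had one within 1 kb, against 0.989% of other genes. Intervals here cover counting error only, and genes of a family are not replicates.

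The DNA under the strongest collagen entries is shown next, since these sequences carry the highest pooled signals found within 1 kb of members. Each line gives 100 bases on either side of the summit, 5′ to 3′ on the strand of the first gene named, read from the ce11 sequence. Capitals mark matches on either strand to any of the 8 motifs searched, which were the Meis hexamer TGACAG, the Pbx-Hox core TGATNNAT, the GATA sites AGATAA and TGATAA, the TATA box TATAAA, the GAGA repeat GAGAGA, the nuclear receptor half-site AGGTCA and the PRDM1-class site GTGAAAG. The windows were chrIV:10085796-10085996 for col-2, chrV:9165166-9165366 for col-10, chrIV:8824426-8824626 for the pair col-3 and col-117, chrIV:1768113-1768313 for col-108, chrIV:15132057-15132257 for col-135, chrII:8569417-8569617 for col-38 and chrV:4653964-4654164 for col-139. The last of these was added after its values were seen, as the member with the highest rank in a single replicate list.
col-2: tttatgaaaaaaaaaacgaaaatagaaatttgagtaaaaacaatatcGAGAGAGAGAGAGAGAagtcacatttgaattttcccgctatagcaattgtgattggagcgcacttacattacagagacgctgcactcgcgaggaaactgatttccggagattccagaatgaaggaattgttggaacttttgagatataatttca
col-10: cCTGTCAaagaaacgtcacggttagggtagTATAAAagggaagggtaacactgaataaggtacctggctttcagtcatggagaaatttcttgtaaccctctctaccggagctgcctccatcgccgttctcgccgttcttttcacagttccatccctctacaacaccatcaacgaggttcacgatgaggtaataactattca
col-3 and col-117: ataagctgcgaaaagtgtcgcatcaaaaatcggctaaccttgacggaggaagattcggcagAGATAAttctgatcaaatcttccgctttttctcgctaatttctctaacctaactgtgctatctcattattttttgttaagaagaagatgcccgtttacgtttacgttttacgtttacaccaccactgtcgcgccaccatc
col-108: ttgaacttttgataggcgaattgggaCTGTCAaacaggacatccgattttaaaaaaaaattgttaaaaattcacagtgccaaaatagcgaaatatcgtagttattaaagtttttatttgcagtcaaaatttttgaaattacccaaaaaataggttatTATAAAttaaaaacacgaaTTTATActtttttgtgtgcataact
col-135: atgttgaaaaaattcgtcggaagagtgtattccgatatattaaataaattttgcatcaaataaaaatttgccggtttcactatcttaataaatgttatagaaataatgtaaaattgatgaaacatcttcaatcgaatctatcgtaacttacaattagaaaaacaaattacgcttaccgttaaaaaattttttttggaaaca
col-38: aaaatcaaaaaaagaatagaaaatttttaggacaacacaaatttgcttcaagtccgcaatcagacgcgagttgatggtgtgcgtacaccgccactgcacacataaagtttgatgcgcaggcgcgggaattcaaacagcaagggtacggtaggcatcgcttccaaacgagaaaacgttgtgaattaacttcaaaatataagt
col-139: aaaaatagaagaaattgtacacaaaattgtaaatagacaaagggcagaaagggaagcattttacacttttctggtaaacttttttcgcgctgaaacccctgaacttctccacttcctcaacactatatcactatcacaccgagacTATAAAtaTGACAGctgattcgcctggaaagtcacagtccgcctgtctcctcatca
The col-2 window held a run of GA repeats, the col-10, col-108 and col-139 windows each held the Meis hexamer and a TATA box, the col-3 window held 1 GATA site, and those of col-135 and col-38 held none of the 8 motifs. A match describes these letters and does not mark a bound site.

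The highest pooled signal within 1 kb of any collagen gene was that of col-2, a gene known for expression in the dauer larva. Its pooled entry (chromosome IV, 10085728 to 10086063) had a signal of 21.3 and rank 994, and its summit lay in intergenic sequence 445 bp upstream. Replicate 2 gave this entry a signal of 13 and rank 1363, while replicate 1 had no matching entry. The strongest replicate 1 entry within 1 kb had a signal of 8.69 and rank 7487. Only replicate 2 thus listed a match to the pooled entry, and how much signal replicate 1 had under it is not shown by the lists. The pooled summit was also nearer to the 5′ end of ndc-80, which encodes a kinetochore protein, at 241 bp. The pooled −log10 q-value of 0.385, the highest of the 56 listed genes, was far below that of a q-value of 0.05.

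Next came col-10, whose promoter is widely used to drive expression in the epidermis. Its entry (chromosome V, 9165098 to 9165433) had a pooled signal of 18.8 and rank 1952, with the summit 41 bp inside the gene, in a coding exon. The replicates were far apart, with a signal of 13.4 and rank 1169 in replicate 2 and a signal of 5.52 and rank 26688 in replicate 1. The divergent neighbours col-3 and col-117 shared 1 entry between their 5′ ends (chromosome IV, 8824358 to 8824693), with a pooled signal of 18.2 and rank 2372. Its summit lay 257 bp upstream of col-3 and 331 bp upstream of col-117. The shared entry was weak in both replicates, with a signal of 7.77 and rank 11175 in replicate 1 and a signal of 5.68 and rank 26556 in replicate 2. This was the only entry shared by members, so the 56 listed genes rested on 55 distinct entries. The fifth gene, col-108 (chromosome IV, 1768045 to 1768380), had a pooled signal of 17.7 and rank 2764, 375 bp upstream. Its replicate signals were 6.72 (rank 17069) and 7.66 (rank 12516), so the replicates were alike and both weak.

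These 5 genes were the only members ranked 3000 or better, which is 8.93% (3.0 to 19.6%) of the 56 listed, an interval that covers the 15.6% of the other listed genes. As a share of all genes the values were 3.21% (1.05 to 7.32%) and 7.66%. The next 5 by pooled signal were col-135, col-38, col-180, col-138 and col-45, with signals from 15.4 to 16.9 and ranks from 3509 to 5441. Of these 10 strongest members, 8 had the summit upstream and 9 had an entry in both replicate lists. The same counts were not made at other genes of like rank, so neither sets these members apart. The pooled list was derived from both replicates, so choosing its strongest entries itself favours matches in both lists. In col-180 the replicates were closest, with a signal of 8.02 (rank 10038) in replicate 1 and 8.03 (rank 10784) in replicate 2. In col-135 replicate 1 was the higher, at 12.2 (rank 1311) against 7.01 (rank 16318). The order was the other way for col-138, at 6.60 (rank 17858) against 10.8 (rank 3271), and for col-38, at 6.95 (rank 15575) against 9.68 (rank 5362). In col-45 the replicate signals were 7.81 and 7.64. The plot of signal by distance shows all 56 genes.

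**Figure D1:**
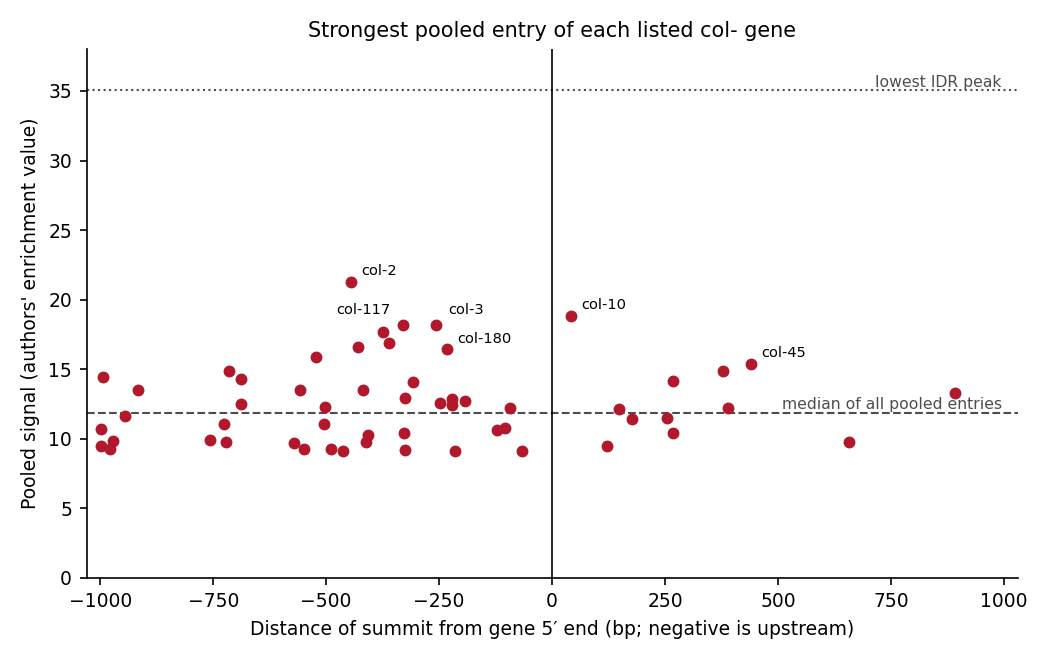
Pooled signal of the strongest entry within 1 kb (vertical axis, the authors' enrichment value) against the distance of its summit from the gene 5′ end (horizontal axis, bp, negative upstream), 1 point for each of the 56 listed collagen genes. All points lie below the lowest IDR peak (dotted line, 35.0), 30 lie above the median of the pooled list (dashed line, 11.9), and 44 lie upstream.

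Matches between the replicate lists at collagen genes stood near the share at other genes. Under the pooled entry, 27 of the 56 listed genes had a matching replicate 1 entry (48.2%, against 55.5% of other listed genes) and 36 a matching replicate 2 entry (64.3%, against 60.0%), where a match overlaps the pooled entry by at least 50% of its width. Both lists held a match for 15 genes, or 26.8%, and the share among other listed genes was 26.9%. A further 12 genes were matched in replicate 1 only, 21 in replicate 2 only and 8 in neither. The share matched in both lists was thus at the background.

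Taken by themselves, the replicate lists each placed an entry within 1 kb of 57 collagen genes. That share of 36.5% stood against 49.1% of other genes in replicate 1 and 49.7% in replicate 2. Entries ranked 3000 or better lay beside 5 collagen genes in replicate 1 (3.21%, against 6.89% of other genes) and beside 3 in replicate 2 (1.92%, against 7.65%). None had such an entry in both replicates, against 1.6% of other genes (318 of 19817), and a count of 0 of 156 allows up to 2.34%, so this zero does not separate the collagen genes from the background. In replicate 1 the strongest were col-139 (signal 14, rank 523), col-135, col-161 (11.9, rank 1590), col-60 (11.8, rank 1667) and col-76 (10.7, rank 2862), of which col-76 had no pooled entry. The gene with the best replicate 1 rank, col-139, had no entry within 1 kb in replicate 2, and its pooled signal was 12.2 (rank 13768), with the summit 93 bp upstream of the gene. In replicate 2 the strongest were col-42 (signal 14.2, rank 908), col-10, col-2, col-138 and col-161 (10.2, rank 4278). The best of them, col-42, had no entry within 1 kb in replicate 1 and a pooled signal of 14.1 (rank 7906). Over the 3 lists, 23 collagen genes had an entry within 1 kb in each (14.7%, 9.6 to 21.3%, against 24.3% of other genes), and 66 had none in any (42.3%, 34.4 to 50.5%, against 26.9%). Depth was unknown in both replicates, so its part in their difference was not tested.

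**Figure D2:**
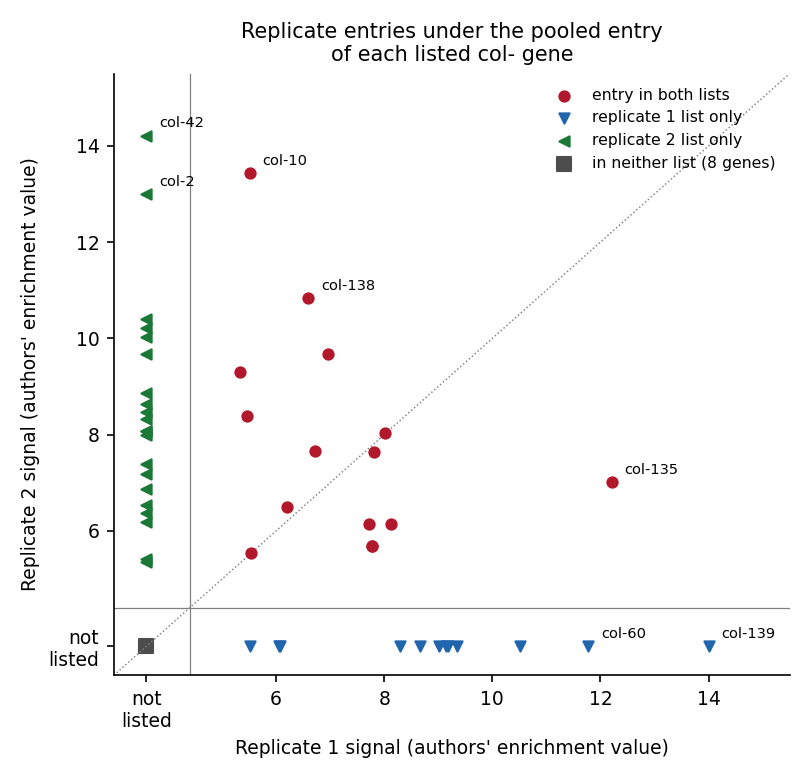
Replicate 1 signal (horizontal axis) against replicate 2 signal (vertical axis), both the authors' enrichment values, for the replicate entries that overlap the pooled entry of each of the 56 listed collagen genes. Points along the margins have no matching entry in 1 replicate (12 in replicate 1 only, 21 in replicate 2 only) and the square marks the 8 genes with none in either; the highest value of each replicate, col-139 at 14 and col-42 at 14.2, sits on a margin.

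The collagen share was below the share of other genes at each of the 9 ranks at which the pooled list was read. At rank 10000 or better in the pooled list, 12.2% (7.5 to 18.4%) of collagen genes and 20.6% of other genes had an entry within 1 kb, and at rank 20000 the shares were 23.1% (16.7 to 30.5%) and 36.2%. At the top the counts were too small to separate collagen from other genes, since 1 collagen gene (0.641%, interval 0.016 to 3.52%) and 3.03% of other genes had an entry ranked 1000 or better.

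**Figure D3:**
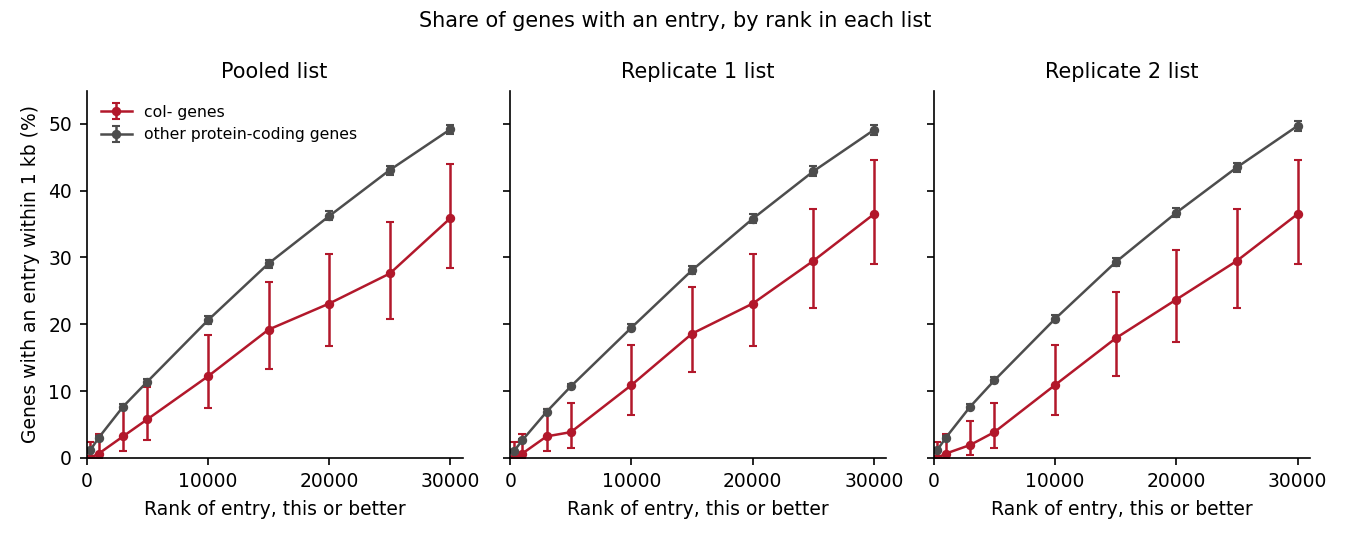
Share of genes with an entry within 1 kb of the 5′ end (vertical axis, percent) at or above each rank (horizontal axis), in the pooled, replicate 1 and replicate 2 lists, for the 156 collagen genes and 19817 other genes. Points are shares and bars exact 95% binomial intervals; at the full list the collagen genes reach 35.9, 36.5 and 36.5% and the others 49.2, 49.1 and 49.7%.

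The gap between collagen and other genes was widest just downstream of the 5′ end, inside the genes. Between 500 bp upstream and the 5′ end, 17.9% (12.3 to 24.9%) of collagen genes and 19.3% of other genes held a pooled summit. From 1000 to 500 bp upstream the shares were 13.5% (8.5 to 19.8%) and 15.8%. In the first 500 bp downstream 7.05% (3.6 to 12.3%) of collagen genes held a summit, against 14% of other genes, and from 500 to 1000 bp downstream only 2 collagen genes did, or 1.28% (0.16 to 4.55%), against 13%. From 1000 to 1500 bp downstream, a bin in which many of these short genes end (median length 1220 bp), the shares were 13.5% and 12.5%. Of the 56 listed collagen genes, 44 had their strongest summit upstream (78.6%, 65.6 to 88.4%), against 58.1% of other listed genes. The median position was −437 bp for these upstream summits and +268 bp for the 12 downstream summits, counted from the 5′ end.

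**Figure D4:**
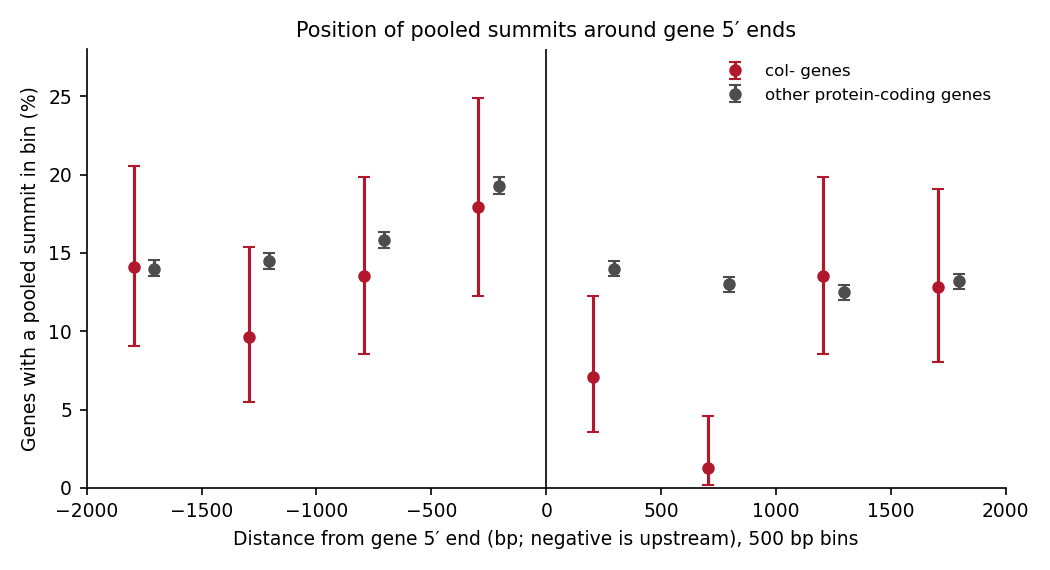
Share of genes with a pooled summit (vertical axis, percent) in each 500 bp bin around the gene 5′ end (horizontal axis, bp, negative upstream), with exact 95% binomial intervals, for collagen and other protein-coding genes. The collagen share falls to 7.05 and 1.28% in the 2 bins just downstream of the 5′ end, and its interval covers the share of other genes in each of the other 6 bins.

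Collagen genes are short, with a median length of 1220 bp (521 to 9946 bp) against 2038 bp for other genes, so a comparison limited to short genes was added after the data were seen. Among genes of at most 3 kb, 19 of 148 collagen genes (12.8%, 7.9 to 19.3%) held a pooled summit anywhere inside, against 4059 of 13398 other genes (30.3%). Per megabase of gene, there were 96.6 summits in the collagen genes and 239 in the others, a measure that allows for the lengths that still differed, with medians of 1191 and 1484 bp. Base composition moved with this difference, since the median GC content was 49.3% in the collagen genes and 36.8% in the others, and its part in the result was not tested. Other genes of at most 3 kb had an entry within 1 kb in 45.6% of cases, and 58.8% of those entries were upstream. All 56 listed collagen genes were among the 148 of at most 3 kb, so the listed share of these was above 35.9%. Whether that share lies below 45.6% by more than counting error was not computed.

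By annotation, 28 of the 56 collagen summits were intergenic (50%, against 45.8% at other listed genes), 12 lay in an intron (21.4%, against 26.4%), 10 in a coding exon (17.9%, against 19.6%) and 6 in an untranslated region (10.7%, against 8.21%). These classes count exons and introns of any protein-coding gene, so an upstream summit can lie inside a neighbour. The collagen gene's own 5′ end was the nearest to the summit for 47 of the 56 (83.9%, against 85.7% of other listed genes). For the other 9 the nearest 5′ end was that of ndc-80 (col-2), rpl-5 (col-38), rfl-1 (col-8), C15A11.4 (col-7), Y49F6B.2 (col-71), C12D8.21 (col-148), prmt-4 (col-102), srh-18 (col-161) or, for col-117, col-3. These entries cannot be assigned to the collagen gene from position alone. Many worm transcripts are trans-spliced, so an annotated 5′ end may lie inside the primary transcript, and its part in these distances was not tested.

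The limit of 1 kb fell among a group of collagen genes with similar distances. Just inside it were col-154 (999 bp), col-102 (998 bp), col-105 (993 bp), col-40 (979 bp) and col-35 (971 bp), all upstream, and of these col-105 had the highest signal, 14.5 (rank 7210). Just outside were col-160 (1043 bp upstream), col-145 (1050 bp upstream), col-159 (1055 bp upstream), col-176 (1061 bp downstream) and col-110 (1071 bp downstream). Over all members the nearest pooled summit lay a median of 1504.5 bp from the 5′ end, from 41 bp at col-10 to 9549 bp at col-34, against a median of 1026 bp for other genes.

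Widening the distance to 2 kb brought in the only IDR peak within that distance of a collagen gene. Other genes with an IDR peak or an entry ranked 3000 or better within 2 kb were not counted. Without that background, the entries described here cannot show whether collagen genes differ from other genes. The IDR peak lay 1743 bp upstream of col-94 (chromosome III, 10989448 to 10989783), whose 5′ end was the nearest of any protein-coding gene. Its pooled signal was 35.7 and its rank 108, with a signal of 13.2 (rank 790) in replicate 1 and 27.2 (rank 82) in replicate 2. Both replicates ranked this entry above every collagen entry within 1 kb except that of col-139 in replicate 1. Next in strength within 2 kb was an entry 1735 bp downstream of the col-3 5′ end and so beyond the gene, with a pooled signal of 22.9 (rank 650) and replicate ranks of 2286 and 418, nearest to T28C6.7. The neighbours col-145 and col-10 shared an entry with a signal of 22.8 (rank 680), 1050 bp upstream of col-145, ranked 13331 in replicate 1 and 981 in replicate 2. The remaining entries ranked 3000 or better within 2 kb, besides those described above, were beside col-36 (signal 20.2), col-177 (18.4), col-8 (18.4) and col-43 (18.3). Of these, the col-36 entry was nearest to mfsd-13.2 and the col-43 entry to sth-1.

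Collagen genes occur in clusters of similar copies, and how reads were placed among the copies is not given in the sources used here. By words of 31 bases, 27 members shared over 50% of their coding sequence with another member, and the pairs col-3 and col-117 and col-126 and col-127 shared 100%. Among the 100 members with at least 95% unique words within 1 kb of the 5′ end, 40 were listed (40%, 30.3 to 50.3%), and among the other 56 members 16 were (28.6%, 17.3 to 42.2%). Of the 50 members within 10 kb of another member 13 were listed (26.0%, 14.6 to 40.3%), and of the 106 farther away 43 were (40.6%, 31.1 to 50.5%). Both splits were made after the data were seen, the intervals overlap in each, and the part of repeated sequence in the listed share was not tested. The entries themselves were largely unique, with at least 81.4% unique words and fewer than 100% at 9 of 56. By chromosome, the listed share ran from 6 of 27 collagen genes on X (22.2%, against 49.1% of other genes there) and 3 of 12 on chromosome III (25%, against 56.7%) to 10 of 24 on chromosome II (41.7%, against 45.1%), 13 of 31 on chromosome V (41.9%, against 44.8%) and 10 of 21 on chromosome I (47.6%, against 51.9%). On chromosome IV, which holds the most, 14 of 41 were listed (34.1%, against 51.6%).

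For 3 of the 8 motifs the interval of the collagen share lay above the share of other promoters. The Meis hexamer TGACAG, the core that Meis proteins prefer, was present on either strand in 30 of 156 collagen promoters (19.2%, 13.4 to 26.3%), taken from 250 bp before to 50 bp after the 5′ end, against 9.61% of other promoters and 9.68% of all. The TATA box was present in 103 (66.0%, 58.0 to 73.4%), against 37.7% of others and 37.9% of all. The nuclear receptor half-site AGGTCA, of the kind read by the moulting regulator NHR-23, was present in 13.5% (8.5 to 19.8%) against 8.23%. The intervals of the GATA sites AGATAA (26.3%, against 21.2%) and TGATAA (29.5%, against 30.2%), the Pbx-Hox core (20.5%, against 23.6%), the GAGA repeat (26.9%, against 21.7%) and the PRDM1-class site GTGAAAG (5.13%, against 4.37%) covered the shares of other promoters. In other windows some of these intervals lay above the share of other promoters: from 500 before to 100 after, AGATAA (43.6%, 35.7 to 51.8%, against 35.4%) and TGATAA (58.3%, 50.2 to 66.2%, against 48.8%), and in the 250 bp before the 5′ end, AGATAA (25.6%, 19.0 to 33.2%, against 18.6%) and GAGAGA (26.3%, 19.6 to 33.9%, against 19.1%). Promoter GC content differed too, with a median of 36.8% for collagen genes and 33.2% for others.

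**Figure D5:**
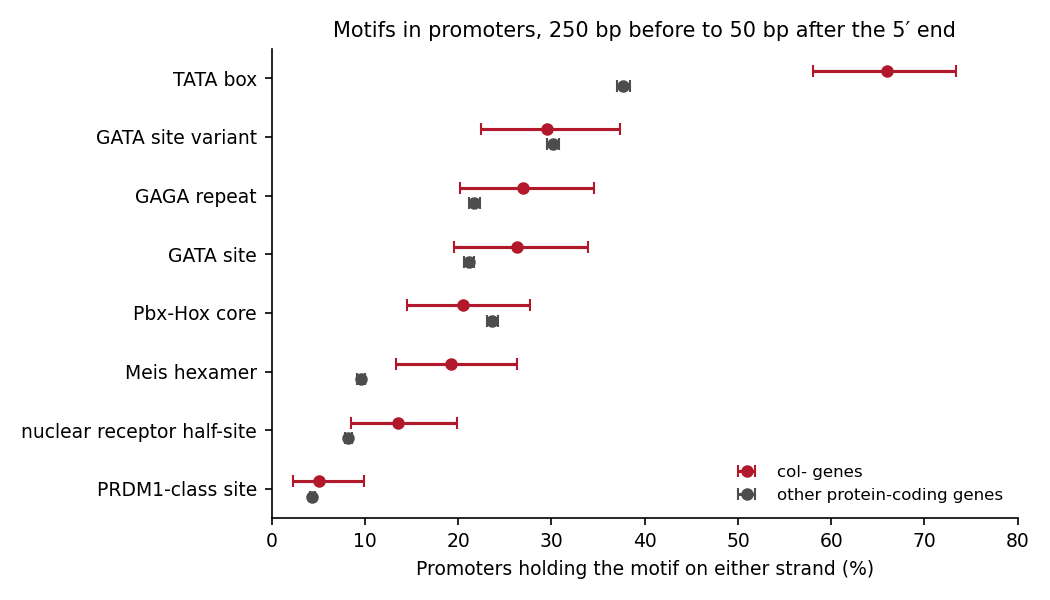
Share of promoters holding each motif on either strand (horizontal axis, percent) in the 156 collagen genes and the 19817 other protein-coding genes, with exact 95% binomial intervals. The TATA box (66.0 against 37.7%) and the Meis hexamer (19.2 against 9.61%) lie farthest apart relative to their intervals.

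For the Meis hexamer, the intervals of listed and unlisted collagen genes overlapped. It was in 12 of 56 listed collagen promoters (21.4%, 11.6 to 34.4%) and in 18 of 100 unlisted ones (18%, 11 to 26.9%). The 34 matches in 30 genes were 17 in each orientation, and 29 of them lay upstream of the 5′ end. The 5′ ends of col-159 and col-160 lie 12 bp apart on the same strand. Their matches, 189 and 177 bp upstream, are the same site, counted for both genes. When only the 250 bp before the 5′ end were searched, a window added after the data were seen, the share was 16% against 7.75% of other promoters. The ratio of 2.00 between collagen and other promoters was exceeded by 57 of the 2063 hexamers found in at least 400 other promoters, whose median ratio was 1.06. The Meis hexamer was thus among the higher ratios but not alone there.

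Under the entries themselves, within 100 bp of the summit, the hexamer was in 9 of 55 collagen entries (16.4%, 7.8 to 28.8%) and in 6.56% of the 8446 entries at other genes. The 9 belonged to col-10, col-108, col-45, col-54, col-115, col-139, col-43, col-64 and col-68. They spanned the range of strength, from a pooled signal of 18.8 at col-10 to 9.21 (rank 28844) at col-68. In col-139 the promoter held the hexamer 205 bp and 40 bp before the 5′ end, and the second of these is the one in capitals beside the TATA box in the sequence above. The TATA box was in 34.5% (22.2 to 48.6%) of collagen entries and 24.9% of the others, which that interval covers. The nuclear receptor half-site was in 5.45%, against 4.46%. Lower at collagen entries were the Pbx-Hox core (9.09%, against 15%), AGATAA (10.9%, against 13.2%) and TGATAA (14.5%, against 19.3%). So were the GAGA repeat (10.9%, against 11.7%) and the PRDM1-class site (0%, against 2.82%). Of the 8 motifs, only the Meis hexamer had an interval that lay above its share at other genes. The intervals of the rest covered those shares.

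Other genes of the cuticle and its regulation were read in the same way, from lists by textbook function. The background for these counts is the 49.2% of genes outside the col- family with an entry and the 7.66% with one ranked 3000 or better, and lists of 3 to 18 genes cannot be told apart from it by a count of 0 at that rank. Of 18 cuticle collagens named for their mutant body shape, 7 had a pooled entry within 1 kb (38.9%, 17.3 to 64.3%), with a median signal of 11.8. The strongest was dpy-3 at 17.7 (rank 2789), with replicate ranks of 1639 and 25660, followed by dpy-13 at 16.2 (rank 4287), with replicate ranks of 20800 and 1646. The dpy-13 entry was nearer to the 5′ end of zipt-2.2, so it cannot be assigned to dpy-13 from position alone. The interval of the share of these 18 collagens covers both that of the col- genes and the background. Of 13 genes for collagen processing and crosslinking, 5 were listed, led by dpy-11, a thioredoxin-like protein of the epidermis, at 17.6 (rank 2834, replicate ranks 7227 and 2309), and by nas-36, an astacin protease needed for moulting, at 17 (rank 3376). Of 10 cuticlins and related ZP-domain proteins 5 were listed, none ranked 3000 or better, with noah-1 (14.1) and fbn-1 (13.8) the strongest. The noah-1 entry had replicate ranks of 10524 and 15993, and the fbn-1 entry had rank 1405 in replicate 1 and no match in replicate 2.

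Of 11 epidermal and moulting transcription factors 4 were listed, none ranked 3000 or better. The GATA factor elt-1, which specifies epidermis in the embryo, had a signal of 16.6 (rank 3826), with rank 656 in replicate 2 and no match in replicate 1. The Grainyhead factor grh-1 had a signal of 16 (rank 4577), with rank 5447 in replicate 2 and no match in replicate 1. The DBL-1 pathway, a BMP-type signal that sets body size and acts on collagen genes, had 9 of 12 genes listed (75%, 42.8 to 94.5%) with a median signal of 14.3, and this interval covers the background share of 49.2%. Its strongest entries were those of lon-1, a target that restrains body length, at 18.4 (rank 2244, replicate ranks 22618 and 4135), and sma-9, a zinc finger cofactor, at 15.6 (rank 5118). The sma-9 entry had rank 1069 in replicate 1 and no match in replicate 2. All 3 collagens of the basement membrane were listed. The type IV collagen gene let-2 had a signal of 24.2 (rank 494, rank 149 in replicate 2 and no match in replicate 1), cle-1 a signal of 19.0 (rank 1884, replicate ranks 915 and 16501), and the other type IV gene emb-9 a signal of 14.6 (rank 6869). The emb-9 entry had rank 1901 in replicate 1 and no match in replicate 2. With 3 genes, the listed share of these basement membrane collagens has an exact interval of 29.2 to 100%.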

How the data were processed

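Peak lists in narrowPeak form and build ce11 were used as deposited, with a signal per entry, the authors' enrichment value, and a deposited −log10 q-value. Per the notes deposited with them, the lists came from replicate alignments and 1 further file. Which aligner, peak caller and IDR cutoff were used is not given in the sources used here. Each replicate and pooled list held 30000 entries, 370 bp wide in replicate 1 and 336 bp in the others, and the IDR list held 119. The files hold no read counts, so depth is unknown. Signals of different lists have different scales.

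Summits were interval middles. The strongest pooled entry within 1 kb of each Ensembl 5′ end was taken, and a replicate entry matched when it overlapped at least 50% of it. Shares have exact 95% Clopper-Pearson intervals. Among the motifs, both GATA sites share GATAA and the Pbx-Hox core can contain TGATAA. Functions were tested on simulated data. Python 3.11.15, numpy 2.4.6, pandas 2.3.3, scipy 1.17.1 and matplotlib 3.10.9 were used.

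Members, lists, motifs and rules were chosen with earlier results of these data known. Named genes were members ranked 3000 or better, the 10 strongest pooled and 5 strongest per replicate, members sharing an entry, those nearest to the 1 kb limit, and in other lists those ranked 3000 or better and the 2 strongest. Members named for a neighbour, a hexamer, a protein or repeat feature, or an entry within 2 kb were chosen after their values were seen. Alternatives were other distances, thresholds, overlaps and promoter windows, each replicate list alone, the nearest 5′ end only and, added after the data were seen, members with 20 Gly-X-Y triplets and other genes of at most 3 kb.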

Additional observations from a re-analysis of the deposited data

How the results depend on the processing

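Over 53 alternatives, 41 left the value within its interval or spread, 12 moved it and 0 reversed a direction. Only the differences from other genes have a sign, so the shares and medians of collagen genes alone could not reverse. The restriction by Gly-X-Y triplets dropped only col-17, which has no entry, so it could not change the values of listed genes. The listed share of collagen genes was 23.7% at 500 bp, 64.7% at 2000 bp, 19.2% with entries at or above the list median only, and 0% at or above the lowest IDR signal. Set against other genes, the main difference was −13.3 percentage points. It was −7.49 points at 500 bp, −4.62 points at 2000 bp, −9.82 points at or above the list median and −0.55 points at the lowest IDR signal. The difference was −9.66 points when all 156 collagen genes were set against other genes of at most 3 kb. All 56 listed members were among the 148 collagen genes of that length, so limiting both sides narrows the gap. At this length 56 of 148 collagen genes had an entry, against 45.6% of other genes. Whether that gap exceeds counting error was not computed, so a lower collagen share is not established among short genes. Ranked 1000 or better were 1.79% of listed collagen genes. As a share of all genes, listed or not, this was 0.641% of collagen genes against 3.03% of others. The upstream share was 64.4% within 2000 bp, where its difference from other genes was 7.39 points in place of 20.5. Promoters from 500 before to 100 after held the Meis hexamer in 29.5% of collagen genes, against 18.4% of others.

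Leaving out a replicate, which means reading the other replicate's list, gave a listed share of 36.5% both ways, a difference of −13.1 to −12.6 points, and a median signal of 7.19 to 7.25, on the scale of those lists. It also gave a share ranked 3000 or better of 5.26 to 8.77%, a share in both lists of 19.3 to 24.6%, an upstream share of 73.7 to 77.2% and an upstream difference of 16.5 to 21.4 points. No paired analysis was possible because there is 1 group and no test. The planned restriction by a RefSeq protein table was not run; translated Ensembl coding sequence was used instead. Unknown depth limits every statement on genes without an entry.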
